A study of Mus musculus with 8 samples.

Results

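Nucleic acid sensors and their adaptors were followed across sorted spleen lymphocytes through 9 genes chosen by name, namely the cytosolic RNA receptors *Ifih1* and *Dhx58*, the ubiquitin ligase *Trim25*, the mitochondrial adaptor *Mavs*, the endosomal Toll-like receptors *Tlr3*, *Tlr7* and *Tlr9*, the adaptor *Myd88* of the latter pair and the Z-nucleic acid sensor *Zbp1*. All 9 were among the 54232 gene IDs of the count table, and each matched a single ID. The study asked how loss of the Janus kinase TYK2, or of its kinase activity, changes the transcriptomes of resting and challenged immune cells. The groups analysed here were splenic NK cells and splenic CD8+ T cells, 3 RNA-seq libraries each, from mice labelled Tyk2 knockout, C57BL/6, 8 to 12 weeks old, under homeostatic conditions without treatment. Both groups therefore carried the same *Tyk2*-/- genotype, a germline loss in every cell of the animal. The methods name a pair of *Tyk2*-/- strains, one of them with a CMV-cre transgene, and the labels do not tell which of them gave a library. Each library came from 3 pooled littermates, and cells were purified by flow cytometry, the NK cells as NK1.1+. Wild-type CD8+ T cells were not compared, because 3 columns carry that name while 2 such samples are listed, so that the values below contrast the cell types within *Tyk2*-/- mice and show no effect of TYK2.

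Cells recognise foreign or misplaced nucleic acid in separate compartments. In the cytosol, the helicases MDA5 (encoded by *Ifih1*) and RIG-I bind double-stranded RNA and engage MAVS on mitochondria, LGP2 (*Dhx58*) modulates both helicases, and TRIM25 attaches ubiquitin in the RIG-I arm. In endosomes, TLR3 binds double-stranded RNA, TLR7 single-stranded RNA and TLR9 DNA with unmethylated CpG, with TLR7 and TLR9 signalling through MYD88 and TLR3 through TRIF (*Ticam1*). ZBP1 binds nucleic acid in the Z conformation and passes the signal to RIPK3, and both the cytosolic and the endosomal routes end in type I interferon and NF-κB target genes. Type I interferon in turn signals through TYK2, and several of these sensors are themselves interferon-stimulated genes.

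Total counts ranged from 20957384 to 26144478 in CD8+ T cells and from 32848432 to 38573550 in NK cells. Genes with any count numbered 12893 to 14042 in the CD8+ T cell libraries and 17224 to 17373 in the NK cell libraries. Whether this difference between the libraries had a part in genes detected in NK cells alone was not tested. Counts are given as deposited, or as normalised counts, that is, scaled with TMM factors to a common library size, the mean over the 6 libraries. A count of 3 or fewer in a library was read as not detectable, which corresponds to 0.0778 to 0.143 CPM over the libraries. Amplified reads were counted without molecular identifiers, so these floors cover counting error only. The common biological coefficient of variation was 1.43 among CD8+ T cell libraries and 0.795 among NK cell libraries. The labels held against their markers, since 6 NK genes summed to 1470550 to 1859220 normalised counts in NK cells against 509 to 1737 in the other group, and 6 CD8+ T cell genes to 228803 to 268991 in their own group against 7935 to 13546 in the other. *Tyk2* itself had 105, 919 and 554 counts in CD8+ T cells, compared with 3864, 4245 and 3207 in NK cells, and without wild-type libraries or counts per exon these reads do not check the genotype.

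The genes differed widely in whether they were expressed at all. *Myd88*, *Zbp1*, *Mavs* and *Trim25* were detectable in all 6 libraries. *Ifih1* was detectable in the 3 NK cell libraries and in none of the CD8+ T cell libraries, *Dhx58* in the 3 NK cell libraries and 1 CD8+ T cell library, *Tlr7* in 1 CD8+ T cell library alone, and *Tlr3* and *Tlr9* nowhere. A mean normalised count of at least 10 was required for testing, which 7 of the 9 genes reached. The cell types were compared by edgeR's quasi-likelihood test, with p-values adjusted after Benjamini and Hochberg over all 14062 genes tested, and a gene was called at an adjusted p below 0.05 and a log2 fold change of at least 1 in size. *Ifih1* was the 1 gene of the 7 that was called, where 11.1% of all genes tested were called in either direction, 6.1% as higher in NK cells and 5.04% as higher in CD8+ T cells. It was also the 1 gene whose libraries did not overlap between the cell types, where 41.6% of all genes tested did not overlap, 25.5% with NK cells above and 16.1% with CD8+ T cells above. The pattern of *Ifih1*, not detectable in each CD8+ T cell library and detectable in each NK cell library, was shared by 8.06% of all genes tested, and the reverse pattern, which none of the 9 genes had, by 1.08%. With 1 gene of 7, these counts lay near or below the backgrounds.

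**Figure D1:**
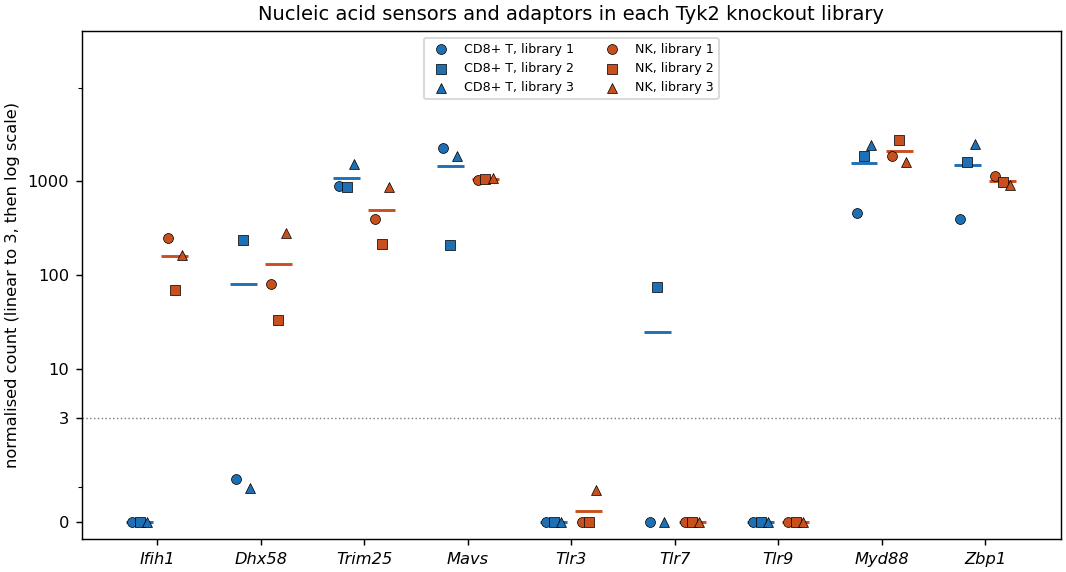
Normalised counts of the 9 genes (vertical axis, linear from 0 to 3 and logarithmic above, with a dotted line at 3) in the 3 CD8+ T cell libraries (blue) and the 3 NK cell libraries (orange), with a horizontal bar at each group mean. *Ifih1* lies at 0 in the CD8+ T cell libraries, and its NK cell values run from 69.5 to 245.2, while *Mavs*, *Myd88*, *Zbp1* and *Trim25* overlap between the cell types.

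*Ifih1* (ENSMUSG00000026896) lies on the minus strand of chromosome 2 at 62595798 to 62646255 in GRCm38. Up to 294 bases before the principal coding transcript are shown for 3 of the genes, because the interferon-stimulated response element (ISRE), a sequence known from promoters of interferon-stimulated genes, was searched there. The ISRE letters, GAAA, any 2 bases and GAAA again, were sought on both strands of the RefSeq promoter windows of GRCm38.p6, which reach from 250 bases before to 50 bases after each start, and 3.44% of 32851 such windows held a match. Of the 9 genes, 6 had a window, and *Ifih1* and *Myd88* held the ISRE letters, while *Mavs*, *Tlr3*, *Tlr9* and *Trim25* did not. *Dhx58*, *Tlr7* and *Zbp1* were not searched here. The sequences below run 5′ to 3′ on the strand of the gene, with the ISRE letters in capitals, from chr2:62646212-62646505 (minus strand) for *Ifih1*, chr9:119340042-119340268 (minus strand) for *Myd88* and chr2:131233813-131234062 (plus strand) for *Mavs*, the last shown as one without a match.
Ifih1: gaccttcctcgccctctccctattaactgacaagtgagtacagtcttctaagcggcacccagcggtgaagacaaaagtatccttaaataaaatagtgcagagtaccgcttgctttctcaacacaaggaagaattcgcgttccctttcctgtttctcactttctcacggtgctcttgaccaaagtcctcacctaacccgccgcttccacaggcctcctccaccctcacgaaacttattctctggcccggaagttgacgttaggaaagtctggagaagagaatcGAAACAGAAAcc
Myd88: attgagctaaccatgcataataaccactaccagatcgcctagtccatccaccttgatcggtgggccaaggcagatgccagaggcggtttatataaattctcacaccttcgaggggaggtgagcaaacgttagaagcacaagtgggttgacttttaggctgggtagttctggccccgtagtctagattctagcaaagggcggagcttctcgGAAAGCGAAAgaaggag
Mavs: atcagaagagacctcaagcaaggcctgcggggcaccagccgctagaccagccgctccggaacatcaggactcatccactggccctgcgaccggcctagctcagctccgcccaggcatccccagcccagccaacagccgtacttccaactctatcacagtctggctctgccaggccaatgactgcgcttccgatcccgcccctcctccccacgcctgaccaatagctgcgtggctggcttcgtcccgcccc
In *Ifih1* the match ended 2 bases before the first base of the principal coding transcript of GENCODE, but it began at base 33 after the RefSeq start, inside the gene's annotated span. In *Myd88* it ended 7 bases before the first base of that transcript and began 40 bases before the RefSeq start, and its first letters overlapped a match to the letters TTCNNNGAA of the gamma-activated site (GAS), which 8.3% of the windows held. A match in letters is a description of the sequence, and binding was not measured in these libraries.

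Expression of *Ifih1*, the receptor for long double-stranded RNA, was found in NK cells alone. It had 0 counts in each of the 3 CD8+ T cell libraries. In NK cells it had 252, 83 and 181 counts, or 245.2, 69.5 and 162.7 normalised counts. All NK cell libraries thus lay well above the floor, with a spread of 3.53-fold between the lowest and the highest of them. The NK cell mean of 159 ± 87.9 normalised counts (SD, n = 3) was at least 46.6-fold higher than in CD8+ T cells, taking the floor of 3 counts per library for the latter. *Ifih1* passed the test narrowly, with an adjusted p of 0.0461 (edgeR's quasi-likelihood test, Benjamini-Hochberg), and over the alternatives the adjusted p ranged from 3.963e-05 with DESeq2 to 0.153 without NK cell library 1. The call was lost when any 1 of the NK cell libraries was left out, without CD8+ T cell library 1 (adjusted p = 0.0506) and with no filter on low counts (0.0656), although CD8+ T cells were at 0 counts throughout. In bulk RNA, fewer cells that express a gene and less RNA per cell cannot be told apart.

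Some markers of plasmacytoid dendritic cells, a cell type known for its nucleic acid receptors, were likewise higher in the NK cell libraries. Of 5 such markers, 3 were above the floor in an NK cell library and 1 in a CD8+ T cell library, and they summed to 1387 to 1880 normalised counts in NK cells and 0 to 822 in CD8+ T cells, with *Tcf4* the highest. *Siglech* had 405, 1 and 174 counts and *Cox6a2* 369, 1379 and 549 counts in NK cells, both with 0 in each CD8+ T cell library, whereas *Klk1* was at 0 in all libraries. *Cd300c* had at most 1 count in any library. *Tcf4* reached 822 normalised counts in CD8+ T cell library 3, above NK cell libraries 2 (724) and 3 (737). NK cell library 2, the lowest in *Ifih1*, was the lowest in *Siglech* and the highest in *Cox6a2* and in the sum. Markers of macrophages or monocytes summed to 250 to 1249 normalised counts in NK cells and 2.45 to 142 in CD8+ T cells. *Cd68* was the highest, 5 of 11 were above the floor in an NK cell library, and *Adgre1*, *Fcgr1*, *C1qc* and *Cd14* were at 0 in all libraries. In NK cell libraries 1, 2 and 3, *Cd68* had 883, 633 and 235 counts, *C1qb* 1, 655 and 0, and *Spic* 0, 178 and 0. There *Csf1r* had 0, 22 and 0 counts and *Lyz2* 0, 0 and 43. NK cell library 2 had the highest of these sums. The part of either cell type in the level of *Ifih1* was not tested.

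*Dhx58* (ENSMUSG00000017830; chromosome 11, 100694884 to 100704271, minus strand), which encodes the helicase LGP2, was unevenly distributed in both cell types. CD8+ T cell libraries held 1, 194 and 1 counts, or 1.22, 238 and 0.968 normalised counts. NK cell libraries held 83, 39 and 313 counts, or 80.8, 32.7 and 281 normalised counts. CD8+ T cell library 2 alone carried the signal of its group, at a level between those of NK cell libraries 1 and 3. The log2 fold change (NK over CD8+ T, here and below) was 0.72 ± 2.14 (SE), with a 95% interval from -4.41 to 5.84 and an adjusted p of 0.86 by edgeR's quasi-likelihood test. Without CD8+ T cell library 2 the log2 fold change was 6.80, and without NK cell library 3 it turned to -0.50, so that single libraries set its size and direction. Its exons share 141 bp with an antisense gene, *Dhx58os*, which had at most 1 count in any library, and the strand setting of the counting is not given in the sources used here.

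*Trim25* (ENSMUSG00000000275; chromosome 11, 88999376 to 89020293, plus strand), the ubiquitin ligase of the RIG-I arm, had the most even CD8+ T cell values of the detected genes. Its normalised counts were 893, 860 and 1517 in CD8+ T cells, compared with 393, 214 and 864 in NK cells. The groups overlapped only by NK cell library 3, which exceeded CD8+ T cell library 2 by a few normalised counts. Means were 1090 ± 370 and 490 ± 336 (SD, n = 3), giving a log2 fold change of -1.15 ± 0.67 (SE; 95% interval -2.75 to 0.44). The difference did not pass the test (adjusted p = 0.279, edgeR's quasi-likelihood test), but its direction was the same in all 6 fits that left out a library, from -1.85 to -0.79.

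*Mavs* (ENSMUSG00000037523; chromosome 2, 131234063 to 131248025, plus strand), the mitochondrial adaptor of both helicases, was nearly constant among NK cell libraries and variable among CD8+ T cell libraries. NK cells had 1032, 1050 and 1072 normalised counts, a coefficient of variation of 1.87%. CD8+ T cells had 2246, 207 and 1882 normalised counts, a coefficient of variation of 75.2%. CD8+ T cell libraries 1 and 3 thus lay above every NK cell library, and library 2 lay far below. The log2 fold change was -0.46 ± 0.79 (SE; 95% interval -2.36 to 1.45; adjusted p = 0.745, edgeR's quasi-likelihood test), and without CD8+ T cell library 1 it was 0.04.

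The endosomal receptors themselves were close to absent from both cell types. *Tlr3* (ENSMUSG00000031639; chromosome 8, 45395665 to 45411080, minus strand) had 1 count in NK cell library 3 and 0 in the other 5 libraries. *Tlr9* (ENSMUSG00000045322; chromosome 9, 106222598 to 106226883, plus strand) had 0 counts in all 6 libraries. At these depths the 2 genes were not detectable, and neither reached the level required for testing. *Tlr7* (ENSMUSG00000044583; chromosome X, 167304929 to 167330558, minus strand) had 60 counts, or 73.6 normalised counts, in CD8+ T cell library 2 and 0 counts in each of the other 5 libraries. It did not pass the test (adjusted p = 0.23, edgeR's quasi-likelihood test), and its signal rested wholly on that library.

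Because TLR7 is a receptor known from B cells and plasmacytoid dendritic cells, the markers of those cells were read in the same library. B cell markers were above the floor for 9 of 11 genes in a CD8+ T cell library and for 7 of 11 in an NK cell library, and their normalised counts summed to 49824 to 79856 in the CD8+ T cell libraries, against 11651 to 13359 in the NK cell libraries, with *Ighm* the highest. CD8+ T cell library 2, which carried *Tlr7*, had the lowest of the 3 sums in its group. *Ighm* made up most of each of these sums, with 66450, 44662 and 53545 normalised counts in CD8+ T cell libraries 1, 2 and 3. The order of the sums thus followed that gene. Among single markers in CD8+ T cell libraries 1, 2 and 3, *Ms4a1* had 405, 6 and 0 counts, *Bank1* 140, 260 and 0, *Cd79b* 4691, 3853 and 972, and *Ighm* 54312, 36417 and 55334. *Bank1* was thus highest in library 2, and the other 3 were not. In CD8+ T cell library 2 the plasmacytoid dendritic cell markers were at 0 normalised counts in sum. A part of these cells in the *Tlr7* value was not tested.

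*Myd88* (ENSMUSG00000032508; chromosome 9, 119335934 to 119341411, minus strand), the adaptor of TLR7, TLR9 and the interleukin-1 receptor family, was abundant in both cell types, of which neither had detectable *Tlr9* and 1 library had *Tlr7*. Its normalised counts were 458, 1846 and 2445 in CD8+ T cells, compared with 1872, 2792 and 1588 in NK cells. CD8+ T cell library 1 was low, and the other CD8+ T cell libraries lay within the NK cell range. The log2 fold change was 0.40 ± 0.62 (SE; 95% interval -1.09 to 1.88; adjusted p = 0.716, edgeR's quasi-likelihood test), and without CD8+ T cell library 1 it was -0.04. The gene overlaps *Acaa1a* and *Slc22a14* in the annotation, with no exon bases in common.

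*Zbp1* (ENSMUSG00000027514; chromosome 2, 173206612 to 173218923, minus strand), the sensor of Z-form nucleic acid, was likewise expressed in every library. CD8+ T cells had 393, 1592 and 2492 normalised counts, and NK cells had 1135, 973 and 911. The NK cell values lay between the lowest and the middle CD8+ T cell values. The log2 fold change was -0.57 ± 0.66 (SE; 95% interval -2.15 to 1.01; adjusted p = 0.607, edgeR's quasi-likelihood test), and without CD8+ T cell library 3 it was 0.01. The low *Zbp1* value belonged to CD8+ T cell library 1, the library that was also lowest in *Myd88*, whereas *Mavs* was lowest in CD8+ T cell library 2.

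**Figure D2:**
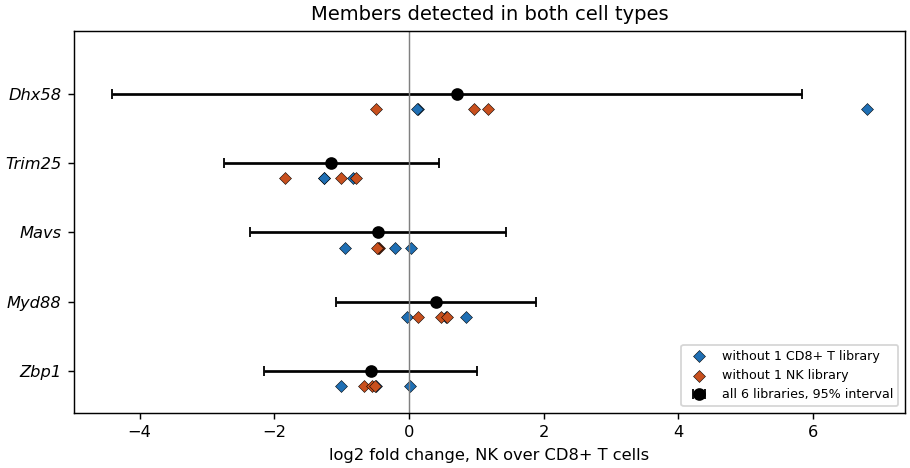
Log2 fold change, NK over CD8+ T (horizontal axis) for the 5 genes detected in both cell types, with black points and 95% intervals from all 6 libraries and diamonds from the fits without 1 CD8+ T cell library (blue) or 1 NK cell library (orange). Every interval spans 0, and for *Dhx58* the fit without CD8+ T cell library 2 lies at 6.80, outside the interval.

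These intervals limit what can be said about the 5 genes detected in both cell types. For *Mavs*, *Myd88*, *Zbp1* and *Trim25* they reach beyond a log2 difference of 1 in at least 1 direction, so that a missed threshold does not show equal levels. The median coefficient of variation of the 7 tested genes was 72.9% across the CD8+ T cell libraries and 42.7% across the NK cell libraries, against 75.1% and 35.2% over all genes tested. The median log2 fold change was -0.46 over the 7 genes and 0.10 over all genes tested.

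To compare genes with each other, normalised counts were divided by the length of the merged exons in kb. The order of levels was the same in both cell types for the 5 shared genes. In NK cells *Myd88* led with 1063 ± 321 normalised counts per kb, followed by *Zbp1* with 465 ± 53.4, *Mavs* with 340 ± 6.34 and *Trim25* with 85.2 ± 58.4 (SD, n = 3). The libraries of these neighbours did not overlap. *Dhx58* with 54.6 and *Ifih1* with 29.1 normalised counts per kb came last, and their libraries overlapped with each other and, for *Dhx58*, with those of *Trim25*. In CD8+ T cells the means were 808 for *Myd88*, 690 for *Zbp1*, 467 for *Mavs* and 189 for *Trim25*, and each of these overlapped with the next. *Dhx58* with 33.2 normalised counts per kb lay below every library of *Trim25*, and *Tlr7* had 6.19. By group means per kb, the adaptors and *Zbp1* thus ranked above *Dhx58* and *Ifih1*, the chosen cytosolic RNA receptors, in both cell types. CD8+ T cell library 2 was the 1 CD8+ T cell library with detectable *Dhx58*. There the order of *Dhx58* (98.6 normalised counts per kb) and *Mavs* (67.0) was the opposite. This ranking did not cover RIG-I (*Ddx58*), a cytosolic RNA receptor from the list of further genes below. Its mean was 465 normalised counts per kb in CD8+ T cells, close to *Mavs*. In NK cells it was 240, between *Mavs* and *Trim25*. Low levels were thus not shared by all cytosolic RNA receptors.

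**Figure D3:**
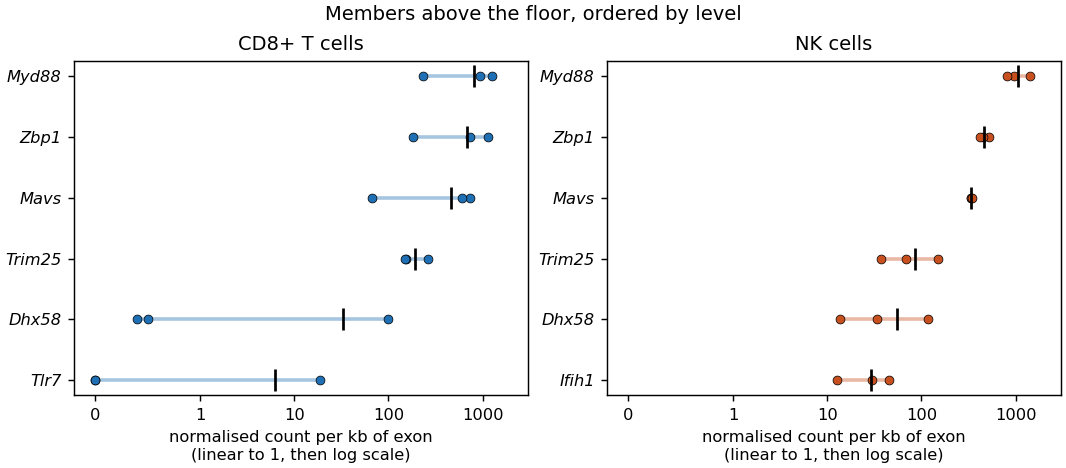
Normalised counts per kb of exon (horizontal axis, linear from 0 to 1 and logarithmic above) in CD8+ T cells (left) and NK cells (right) for the genes above the floor of 3 counts in at least 1 library, with a point per library, a line over their range and a black tick at the mean. *Myd88* leads in both panels, and the points of the first 4 genes are separated in NK cells and overlap in CD8+ T cells.

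The rest of the pathway was read from a list of 77 further genes of nucleic acid sensing, all of them matched in the table and 72 of them tested. Of the 72, 12 were called, 8 as higher in NK cells and 4 as higher in CD8+ T cells, or 16.7%, against 11.1% over all genes tested. At an unadjusted p below 0.05 there were 28 of the 72 genes and 4322 of all genes tested. The median log2 fold change was 0.56, against 0.10 over all genes tested. The libraries of 25 genes lay wholly higher in NK cells and those of 11 wholly higher in CD8+ T cells, or 34.7% and 15.3% of the 72, against 25.5% and 16.1% over all genes tested. The groups below held 6 to 17 tested genes each, of which 0% to 23.1% were called, beside the 11.1% over all genes tested. Of all genes tested, 7365 had log2 fold changes above 0 and 6697 below.

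Around the helicases, 3 of 15 genes of cytosolic RNA sensing were called. *Rnf135*, which encodes the ubiquitin ligase Riplet of the RIG-I arm, had 0, 0 and 2 counts in CD8+ T cells, compared with 360, 1081 and 691 in NK cells, a ratio of 852 with an exact binomial interval from 236 to 7044 for counting error (adjusted p = 0.0169, edgeR's quasi-likelihood test). *Adar*, the editor of double-stranded RNA that keeps self RNA from MDA5, was higher in NK cells by a log2 fold change of 2.87 ± 0.52 (adjusted p = 0.0191, edgeR's quasi-likelihood test). *Zc3hav1*, the zinc-finger antiviral protein ZAP, was higher in CD8+ T cells by a log2 fold change of -2.66 ± 0.29 (SE), with 8880 ± 2208 against 1407 ± 309 normalised counts (SD, n = 3; adjusted p = 0.00324, edgeR's quasi-likelihood test). *Rnf135* thus shared with *Ifih1* a signal in the NK cell libraries alone, while *Trim25*, the other ubiquitin ligase of this arm, was detected everywhere. The partners of the cytosolic receptors did not move in a single direction, with 7 log2 fold changes above 0 and 8 below.

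Around the endosomal receptors, none of the 9 tested genes that chaperone, feed or process them was called. All 9 log2 fold changes were above 0, the lowest of them at 0.02. The untested genes of this group, *Tlr8*, *Tlr13* and *Slc15a3*, were at 0 counts in all 6 libraries, like *Tlr9*. *Unc93b1*, which carries the endosomal receptors out of the endoplasmic reticulum and was singled out after its values were seen, had 47, 87 and 0 counts in CD8+ T cells, compared with 1120, 1813 and 1521 in NK cells (adjusted p = 0.116, edgeR's quasi-likelihood test). NK cells thus held this chaperone without detectable *Tlr3*, *Tlr7* or *Tlr9* beyond 1 count.

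Downstream of the endosomal receptors, 2 of 12 tested signalling genes were called, both as higher in NK cells. *Ticam1*, the adaptor of TLR3, had 0 counts in each CD8+ T cell library and 883, 481 and 791 in NK cells, at least 192-fold higher in NK cells (adjusted p = 0.0128, edgeR's quasi-likelihood test). Unlike *Myd88*, which both cell types expressed, this second adaptor was therefore detected in NK cells alone, there without detectable *Tlr3*. *Irak2*, a kinase of the MYD88 complex, had 6, 43 and 10 counts in CD8+ T cells, compared with 1244, 1384 and 1514 in NK cells, a log2 fold change of 5.74 ± 1.04 (SE; adjusted p = 0.0198, edgeR's quasi-likelihood test).

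Of the 13 tested genes of cytosolic DNA sensing, 3 were called. *Pqbp1*, a co-factor of the DNA sensor cGAS, and *Rnaseh2c*, a subunit of the nuclease that removes RNA from DNA hybrids, were higher in NK cells by log2 fold changes of 1.95 ± 0.19 and 1.69 ± 0.33 (SE; adjusted p = 0.00187 and 0.0246, edgeR's quasi-likelihood test). *Trim32*, a ubiquitin ligase of STING, was higher in CD8+ T cells, with 670 ± 340 against 33.0 ± 19.9 normalised counts (SD, n = 3; log2 fold change -4.34, adjusted p = 0.0381, edgeR's quasi-likelihood test). Of the 13 genes, 11 had log2 fold changes above 0 and 2 below.

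Of the 17 kinases, their partners and transcription factors on which the routes converge, 3 were called. *Ikbke*, which encodes the interferon-inducing kinase IKKε, and *Ikbkb*, which encodes IKKβ of the NF-κB route, were higher in CD8+ T cells by log2 fold changes of -2.76 ± 0.35 and -2.06 ± 0.48 (SE; adjusted p = 0.00546 and 0.0428, edgeR's quasi-likelihood test). *Azi2*, an adaptor of the kinase TBK1, was higher in NK cells by 1.23 ± 0.28 on the log2 scale (adjusted p = 0.0376, edgeR's quasi-likelihood test). In the arm downstream of *Zbp1*, *Mlkl*, the executor of necroptosis, was the 1 of 6 genes called, with 0 counts in each CD8+ T cell library and 130, 143 and 572 in NK cells, at least 74.2-fold higher in NK cells (adjusted p = 0.0428, edgeR's quasi-likelihood test). NK cell library 3 was far above the other NK cell libraries, and without it this bound was 36.0-fold. *Zbp1* was thus detected without detectable *Mlkl* in the CD8+ T cell libraries, which held counts for fewer genes, and together with it in the NK cell libraries.

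**Figure D4:**
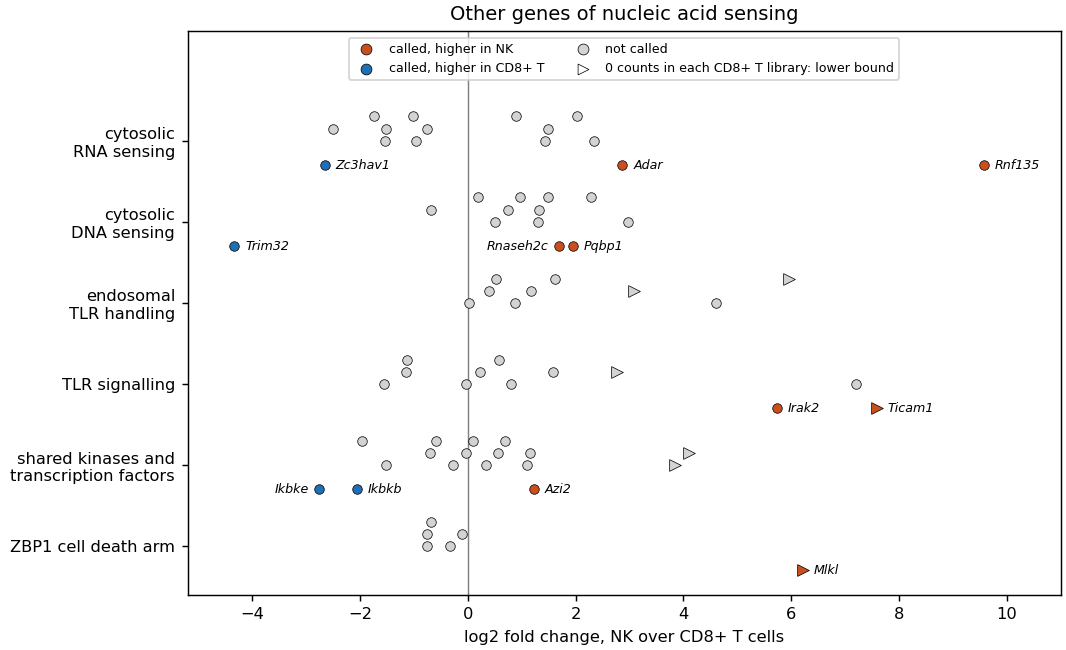
Log2 fold change, NK over CD8+ T (horizontal axis) for the 72 tested further genes in 6 groups, with called genes in colour and named, and triangles at the lower bound for genes with 0 counts in every CD8+ T cell library. The 8 called genes on the right and the 4 on the left come from every group but endosomal TLR handling, in which all 9 values lie above 0.

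Only *Zc3hav1*, *Pqbp1* and *Ikbke* of the 12 were called in each of the 6 fits that left out a library, and they were the 3 genes called without any one of the NK cell libraries. Most calls were lost over all genes as well. Of 1567 called genes, 476, 480 and 469 stayed called without NK cell library 1, 2 or 3. Among the 51 of the 77 genes with a RefSeq promoter window, 5 held the ISRE letters found in *Ifih1* and *Myd88*, where 3.44% of all windows did. They were *Ddx58*, *Ddx60*, *Eif2ak2*, *Pld3* and *Cflar*. None of the 5 was called, where 11.1% of all genes tested were, and 5 genes are too few to differ from that share.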

How the data were processed

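Full-length cDNA libraries were sequenced as 50 bp single-end reads. Per the submitters' processing notes and the methods, the authors used Trimmomatic 0.32 for trimming and STAR 2.7.1 for alignment to mm10, counted uniquely aligned reads in exons of a GENCODE Basic annotation of GRCm38 in R 3.2.3 and deposited raw counts per gene. Multi-mapping reads were left out, which lowers the counts of genes with close copies. Of 104 value columns 6 were used here, and 98 were not. The columns carry running numbers that are not the samples' numbers, and libraries are named by them here.

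The analysis ran in R 4.3.3 with the package edgeR, version 4.0.16 (TMM, robust quasi-likelihood fit, cell type as the only term) on the 14062 genes whose normalised count averaged 10 or more, and p-values were adjusted by Benjamini-Hochberg over all of them. The fit was tested on simulated data beforehand, with a spread between libraries far smaller than the coefficients of variation of 1.43 and 0.795 found here. That test therefore gives no error rates at the spread of these libraries. Standard errors are the log2 fold change over the square root of F. Replicates are pools of animals, and p-values measure only the spread between these libraries. Alternatives were RLE factors, DESeq2 1.42.0, no filter, no fold limit and leaving out each library. Symbols and positions came from GENCODE M21, and promoters from RefSeq. The genes and lists were chosen with earlier results of these data known. By rule, the 9 genes, the called genes of the pathway list (at most 8 per group), each marker list's highest gene and *Tyk2* were named. Other markers, *Unc93b1*, pathway genes at 0 and those with ISRE letters were named after their values were seen. Lists of CD4+ T cell, neutrophil, conventional dendritic cell, erythroid and platelet markers summed to at most 533 normalised counts in any library.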

Additional observations from a re-analysis of the deposited data

How the results depend on the processing

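RLE factors left the counts of called genes near those reported, with 1578 of all genes, 1 of the 9 sensors and adaptors and 12 of the pathway list, and dropping the fold limit gave 1600, 1 and 12. DESeq2 called 3537 of all genes (2027 higher in NK cells and 1510 in CD8+ T cells) and 25 of the pathway list (19 and 6), and again 1 of the 9. With no filter on low counts 1319 of all genes, 0 of the 9 and 10 of the pathway list were called by edgeR. Leaving out a library gave 475 to 1876 of all genes, 0 to 1 of the 9 and 3 to 16 of the pathway list, the lowest counts without NK cell library 1 (482 of all genes), 2 (485) or 3 (475), each with 3 of the pathway list and 0 of the 9, while without CD8+ T cell library 1 there were also 0 of the 9. At an unadjusted p below 0.05, 1 of the 9 passed in the fit with all libraries. The cause of these shifts was not tested. Log2 fold changes that turned, none of them called, were those of *Dhx58* (-0.50 without NK cell library 3), *Mavs* (0.0363 without CD8+ T cell library 1), *Myd88* (-0.0367 without CD8+ T cell library 1) and *Zbp1* (0.0094 without CD8+ T cell library 3). Over the 6 fits without a library they reached up to 6.80 (*Dhx58*) and 0.84 (*Myd88*) and down to -0.95 (*Mavs*) and -1.01 (*Zbp1*). The median log2 fold change of all genes was 0.10 as reported, 0.17 with RLE factors, 0.16 with DESeq2 and 0.56 with no filter. No paired analysis was possible because the NK and CD8+ T cell samples share no replicate numbers and the columns carry none of them.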
